A study of Homo sapiens with 6 samples.

Results

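The interferon-stimulated genes and RNA sensors examined here are 39 genes chosen by symbol, of 28008 symbols in the deposited count table, and all 39 were found there. They were divided by role into 9 RNA sensors, 8 signal factors and 22 effectors. The genes were measured by RNA-seq in NCI-H660 (H660) cells, an androgen receptor-negative line of neuroendocrine prostate cancer (NEPC), which carried a tetracycline-inducible MUC1 shRNA in a puromycin-selected lentiviral vector. The 3 DOX-negative libraries came from cells given 0.1% DMSO as vehicle, and the 3 DOX-positive libraries from cells given 500 ng/ml doxycycline (DOX) to switch on the shRNA, for 7 days. Both groups carried the vector, 1 shRNA sequence was used, and no library of cells with a control shRNA and DOX was analysed here, so MUC1 silencing, DOX itself and expression of a hairpin RNA cannot be told apart as the source of a difference. The comparison asks which transcripts of the interferon system differ when MUC1-C, the transmembrane subunit of mucin 1, is silenced.

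Cells detect viral or misplaced RNA with sensors such as RIG-I (DDX58) and MDA5 (IFIH1), which signal through MAVS to the kinases and IRF factors that switch on interferon genes. Secreted type I interferon binds the IFNAR1 and IFNAR2 receptor chains, and the kinases JAK1 and TYK2 then activate the ISGF3 complex, which includes STAT2 and IRF9. This complex binds the interferon-stimulated response element (ISRE) in the promoters of effector genes, which block viral RNA, protein synthesis and budding. Many tumor cells also express a part of these genes without infection.

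Promoters of genes that rose are shown because the ISRE is the element by which ISGF3 recognizes its targets. RefSeq promoters, from 250 bases before to 50 bases after each annotated start (GRCh38.p14), were matched for 32 of the 39 genes, with 42 start sites. The letters GAAANNGAAA, the core of an ISRE, were searched on both strands. OAS3 encodes the largest 2'-5'-oligoadenylate synthetase, and its promoter (chr12:112938224-112938523, + strand) held this motif at bases -143 and -12 from the start, marked in capitals.
OAS3: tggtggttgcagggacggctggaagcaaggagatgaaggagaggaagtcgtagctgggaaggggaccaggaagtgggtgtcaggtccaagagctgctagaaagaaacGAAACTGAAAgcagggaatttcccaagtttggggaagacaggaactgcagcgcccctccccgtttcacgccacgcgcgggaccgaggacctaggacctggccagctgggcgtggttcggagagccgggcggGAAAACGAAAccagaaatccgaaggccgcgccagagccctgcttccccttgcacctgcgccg
RSAD2 encodes viperin, and the promoter of its second annotated start (chr2:6877527-6877826, + strand) held the motif once, at base -145 on the opposite strand, again in capitals.
RSAD2, second start: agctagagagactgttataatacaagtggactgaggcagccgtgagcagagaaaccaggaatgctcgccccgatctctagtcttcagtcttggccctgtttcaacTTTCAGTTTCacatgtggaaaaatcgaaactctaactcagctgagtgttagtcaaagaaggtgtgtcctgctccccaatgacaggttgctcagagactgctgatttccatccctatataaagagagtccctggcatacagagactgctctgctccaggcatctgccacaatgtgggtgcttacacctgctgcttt
A match is a run of letters and not a measured binding site.

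At least 1 promoter of 22 of the 32 genes (68.8%) held GAAANNGAAA, beside 4.38% of all 27305 genes with a RefSeq promoter. PARP9 and DTX3L were each counted for the same letters. These lie at base -41 from the second PARP9 start and at base -6 from the DTX3L start. The letters TTCNNNGAA, the core of the interferon-gamma-activated (GAS) element, were in promoters of 9 of the 32 genes (28.1%), beside 9.38% of all genes. The promoters of OAS1, CMPK2 and XAF1 did not hold GAAANNGAAA. After these sequences had been seen, the same letters were searched with a spacer of 1 base, as GAAANGAAA, which was found for 12 of the 32 genes (37.5%) beside 3.87% of all genes. Either spacing was found for 27 of the 32 genes (84.4%) beside 7.83% of all genes, and OAS1, CMPK2 and XAF1 were among the 27. Because the 1-base spacer was chosen with their sequences in view, their place among the 27 is no independent result. The genes were listed as interferon-stimulated, and what part of these shares comes from that choice was not tested. At OAS3 the 1-base form began at base -148 and overlapped the 2-base form.

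**Figure D1:**
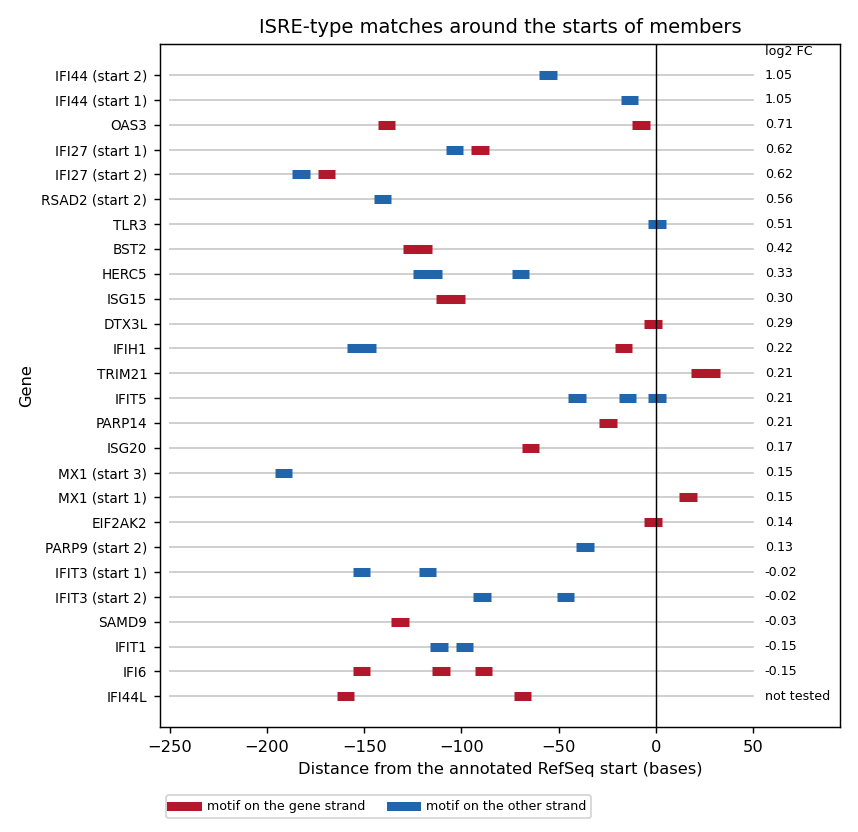
Positions of GAAANNGAAA (ISRE-type) in the RefSeq promoters of members that hold it; the x axis is the distance in bases from the annotated start, red is the gene's own strand and blue the other, and the log2 fold change of the gene (DOX-positive over DOX-negative) stands at the right. Genes are ordered by that change, and matches lie along the whole range from IFI44 (1.05) to IFI6 and IFIT1 (-0.15 each), with IFI44L not tested.

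OAS1, the synthetase that makes 2'-5'-oligoadenylate on binding double-stranded RNA, carried the 1-base form (capitals) at base -17 of its promoter (chr12:112906712-112907011, + strand).
OAS1: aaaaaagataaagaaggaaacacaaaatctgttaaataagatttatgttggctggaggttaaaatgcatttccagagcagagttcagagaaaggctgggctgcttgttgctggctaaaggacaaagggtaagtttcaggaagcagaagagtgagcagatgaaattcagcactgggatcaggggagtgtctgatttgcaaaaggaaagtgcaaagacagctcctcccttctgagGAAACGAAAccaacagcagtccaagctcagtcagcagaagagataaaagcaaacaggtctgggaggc
The first annotated start of RSAD2 lies head to head with CMPK2, and the window around it (chr2:6865635-6865934, + strand) held the 1-base form 4 times, at bases -152, -118, -84 and -60 (capitals).
RSAD2, first start: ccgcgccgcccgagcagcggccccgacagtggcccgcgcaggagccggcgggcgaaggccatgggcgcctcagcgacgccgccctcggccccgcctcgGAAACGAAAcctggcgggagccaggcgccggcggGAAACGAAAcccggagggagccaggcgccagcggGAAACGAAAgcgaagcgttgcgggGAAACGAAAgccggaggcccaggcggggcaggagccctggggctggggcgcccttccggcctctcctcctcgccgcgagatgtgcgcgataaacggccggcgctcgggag
The CMPK2 promoter of the second annotated start held the 1-base form at bases -14 and 11 on its opposite strand, which are the same letters as those at bases -60 and -84 from the first RSAD2 start.

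Of the tested genes with a promoter in the table, 21 held GAAANNGAAA and 10 did not. The median log2 fold change was 0.21 in the former and 0.28 in the latter. The test was passed by 2 of the 21 and 3 of the 10, where 2.91% of all tested genes were called higher. The 3 were OAS1, CMPK2 and XAF1, and each of them held the 1-base form, so the 10 are not a set without either form. No difference between these sets was tested.

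The targeted gene checked the labels. Normalized MUC1 levels were 88.2, 90.2 and 79.6 CPM (counts per library size after TMM scaling) without DOX and 36.7, 37.2 and 29.9 CPM with DOX. The log2 fold change was -1.32 (SE 0.096, edgeR adjusted p = 0.00017). Total counts were 47620696 to 74061121 per library and did not differ between the groups beyond the replicates (exact two-sided permutation p = 0.30; with 3 against 3 libraries the smallest possible is 0.10). The 7 neuroendocrine markers summed to 862 to 965 CPM in DOX-negative and 768 to 853 CPM in DOX-positive libraries, with INSM1 and NCAM1 called lower and 3 of the 7 above 0 in log2 fold change, among them CHGB at 0.29 (edgeR adjusted p = 0.17). KLK3, a luminal prostate gene, was at 0 counts in all 6. Among 17026 genes tested, 496 (2.91%) were called higher and 333 (1.96%) lower in DOX-positive cells at an adjusted p under 0.05.

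Of the 39 genes, 38 passed the filter on low counts, and IFI44L, with 1 count in a single DOX-negative library, did not. OAS3, OAS1, RSAD2, CMPK2 and XAF1 rose, so that 5 of 38 were called higher where 2.91% of all tested genes were. No member was called lower, where 1.96% of all tested genes were. At an unadjusted p under 0.05 (edgeR), 0 of the 38 were lower. Of all tested genes, 21.1% reached that threshold in either direction and 11.6% in the higher direction. DESeq2 called 0 members lower, where it called 6% of all genes, 55.5% of those higher. In all, 30 of the 38 had a log2 fold change above 0, compared with 50.1% of all genes, and the median was 0.24 beside 0.00034 over all genes tested. The 3 DOX-positive libraries all lay above the 3 DOX-negative libraries for 18 of the 38, compared with 14.8% of all tested genes, and all lay below for 0, compared with 13.3%. An unadjusted p under 0.05 in the higher direction was reached by 19 of the 38, compared with 11.6% of all tested genes. The list was chosen with earlier results of these data known. These shares, and those by role below, are therefore a description of the list and no independent comparison with all genes. These are bulk samples, in which more cells expressing a gene and more RNA per cell cannot be told apart.

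**Figure D2:**
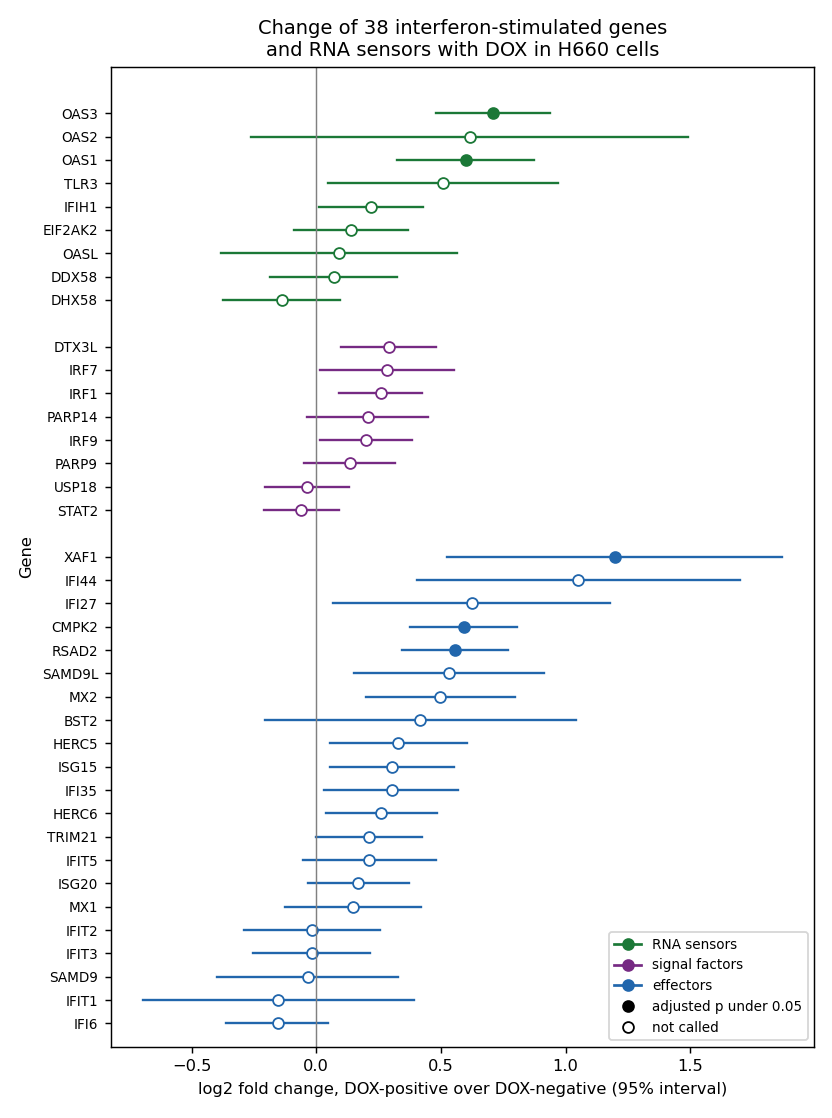
Log2 fold change (DOX-positive over DOX-negative, edgeR, 3 libraries a group) of the 38 tested genes by role, with 95% intervals as bars, filled where the adjusted p was under 0.05. Filled points are OAS3 and OAS1 among RNA sensors and XAF1, CMPK2 and RSAD2 among effectors, and 8 of the 38 points lie below 0.

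Expression per transcript length showed which of these genes H660 cells transcribe at all. In TPM, which are corrected for gene length and library total, 7 of the 39 genes had a mean of 10 or more over the 6 libraries, 20 were between 1 and 10, and 12 were below 1. The order from the top was ISG15, IFI6, OAS3, EIF2AK2, STAT2, DTX3L and USP18. ISG15, a ubiquitin-like modifier, stood at 21.8 ± 4.34 TPM in DOX-negative and 26.9 ± 2.58 TPM in DOX-positive cells (SD, n = 3). IFI6, a mitochondrial survival factor, stood at 17.7 ± 3.16 and 16.2 ± 3.33 TPM, and these neighbours in the order overlapped in their SD only in DOX-negative cells. OAS3 was below IFI6 in DOX-negative cells (11.3 ± 2.06 TPM) and overlapped it in DOX-positive cells (18.6 ± 2.86 TPM), and each neighbouring pair from EIF2AK2 to USP18 overlapped in its SD in both groups. At the bottom were IFIT1, XAF1, OAS2 and IFI44L, each under 0.1 TPM in both groups.

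Among the 9 RNA sensors, 2 were called higher, 8 had a log2 fold change above 0 and 3 had groups apart, with a median of 0.22. Of all tested genes, 2.91% were called higher, 50.1% were above 0 and 14.8% had groups apart upward. The OAS enzymes make short 2'-5'-linked oligoadenylates on binding double-stranded RNA. OAS3 was the most abundant of them, with normalized levels of 154, 133 and 130 CPM without DOX and 194, 230 and 258 CPM with it. Every DOX-positive library exceeded every DOX-negative library. The means were 139 ± 12.9 and 227 ± 32 CPM (SD, n = 3), a 1.64-fold rise (95% interval 1.40 to 1.91), with a log2 fold change of 0.71 (SE 0.10, edgeR adjusted p = 0.0057). In TPM, OAS3 was at 12.9, 11.9 and 8.96 in DOX-negative and at 19.5, 15.4 and 20.9 in DOX-positive libraries.

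OAS1, its neighbour on chromosome 12, was at 24.7, 21.4 and 20.3 CPM in DOX-negative and 27.3, 34.2 and 39.1 CPM in DOX-positive libraries. These groups did not overlap either, although the lowest DOX-positive library lay close to the highest DOX-negative one. The rise was 1.52-fold (95% interval 1.25 to 1.83), or 0.60 on the log2 scale (SE 0.13, adjusted p = 0.022). The third gene of the cluster, OAS2, was hardly detected, at 17, 5 and 9 counts in DOX-negative and 18, 16 and 22 counts in DOX-positive libraries. The OAS2 groups overlapped, and its log2 fold change of 0.62 had an SE of 0.40 (adjusted p = 0.42). OAS1, OAS3 and OAS2 lie in this order at chr12:112906962-113011723 (GRCh38.p14), with 5254 and 5267 bases between them. OASL, a synthetase-like protein without this activity that binds RIG-I, had a mean of 47.5 counts and a log2 fold change of 0.09 (SE 0.22).

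DDX58 and IFIH1 signal through MAVS, and DHX58 regulates them. DDX58 (RIG-I), the sensor of 5'-triphosphate RNA, was at 23.9, 22.9 and 22.6 CPM in DOX-negative and 23.1, 20.6 and 29.2 CPM in DOX-positive libraries. These groups overlapped, and the highest and the lowest DDX58 level were both DOX-positive. Its log2 fold change was 0.07 (95% interval -0.18 to 0.33, adjusted p = 0.78). IFIH1 (MDA5), the sensor of long double-stranded RNA, was at 10.3, 11 and 11.2 CPM in DOX-negative and 12.3, 11.8 and 13.7 CPM in DOX-positive libraries. The IFIH1 groups did not overlap, yet the log2 fold change of 0.22 (SE 0.095) did not pass the test (adjusted p = 0.21). DHX58 (LGP2) had a log2 fold change of -0.14 (adjusted p = 0.51), the only one of the 9 below 0.

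TLR3 recognizes double-stranded RNA in endosomes. Its levels were 1.69, 1.83 and 1.26 CPM in DOX-negative and 1.83, 2.00 and 3.00 CPM in DOX-positive libraries, and DOX-positive replicate 3 stood above all others. The log2 fold change was 0.51 (SE 0.21, adjusted p = 0.19). EIF2AK2 (PKR), the kinase that halts translation on binding double-stranded RNA, was at 107, 109 and 102 CPM in DOX-negative and at 117, 97.3 and 136 CPM in DOX-positive libraries. The lowest and the highest EIF2AK2 level were again DOX-positive, and the log2 fold change of 0.14 (95% interval -0.089 to 0.37) did not pass the test (adjusted p = 0.49).

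None of the 8 signal factors was called, although 6 had a log2 fold change above 0 and 4 had groups apart, with a median of 0.20. Among all tested genes, 2.91% were called higher, 50.1% were above 0 and 14.8% had groups apart upward. At an unadjusted p under 0.05, 4 of the 8 were higher (edgeR), where 11.6% of all tested genes were. DESeq2 called IRF1 and DTX3L, where it called 6% of all genes. IRF1, a transcription factor induced by interferon, was at 55.0, 52.4 and 54.4 CPM in DOX-negative and 60.1, 68.9 and 64.4 CPM in DOX-positive libraries. The IRF1 groups were apart, with a log2 fold change of 0.26 (95% interval 0.091 to 0.43, adjusted p = 0.075). DTX3L, an E3 ubiquitin ligase that acts with PARP9, was at 105, 98.3 and 92.7 CPM in DOX-negative and 117, 110 and 135 CPM in DOX-positive libraries, also apart, with a log2 fold change of 0.29 (adjusted p = 0.079). PARP9, whose annotated span overlaps that of DTX3L by 447 bases, had a log2 fold change of 0.13 (adjusted p = 0.39). PARP14, a mono-ADP-ribosyltransferase, had one of 0.21 (adjusted p = 0.32).

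IRF7, the factor that amplifies interferon transcription, was at 18.6, 19.0 and 14.7 CPM in DOX-negative and 19.7, 24.8 and 19.2 CPM in DOX-positive libraries. The groups were apart by a small margin, and the log2 fold change was 0.28 (95% interval 0.015 to 0.55, adjusted p = 0.21). Of the ISGF3 subunits, IRF9 was at 13.5, 12.9 and 13.5 CPM in DOX-negative and 14.8, 15.3 and 15.8 CPM in DOX-positive libraries, a difference of 0.20 on the log2 scale (SE 0.085, adjusted p = 0.20). STAT2 was at 102, 95.4 and 103 CPM in DOX-negative and 96.8, 97.1 and 94.7 CPM in DOX-positive libraries. The STAT2 groups overlapped, and the 95% interval of its log2 fold change ran from -0.21 to 0.092. USP18, the protease that removes ISG15 and blocks the receptor, was at 33.9 to 37.4 CPM in all 6 libraries, with an interval of -0.21 to 0.13. USP18 has a near-identical copy in the genome, USP41, and how the counting divided reads between them is not given in the sources used here.

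Of the 21 effectors tested, 3 were called higher, 16 had a log2 fold change above 0 and 11 had groups apart. Over all tested genes these shares were 2.91%, 50.1% and 14.8% (upward), in the same order. The median of the effectors was 0.30, which was 0.19 on log2(TPM + 1) with a filter and 0.12 without. RSAD2 (viperin), an enzyme that makes a chain-terminating ribonucleotide, was at 6.45, 6.26 and 6.49 CPM in DOX-negative and 8.97, 9.37 and 9.91 CPM in DOX-positive libraries. The gap between the groups was wider than the spread within either. The rise was 1.47-fold (95% interval 1.27 to 1.71), with a log2 fold change of 0.56 (SE 0.098, edgeR adjusted p = 0.011). CMPK2, a mitochondrial nucleotide kinase, was at 6.07, 6.21 and 5.96 CPM in DOX-negative and 8.71, 9.69 and 9.11 CPM in DOX-positive libraries. The gap was again wider than the spread, and the rise was 1.51-fold (95% interval 1.3 to 1.75), or 0.59 on the log2 scale (SE 0.099, adjusted p = 0.010). CMPK2 and RSAD2 lie head to head on opposite strands of chromosome 2 (chr2:6840553-6898239), and their annotated spans overlap by 751 bases. The strand setting of the counting is not given in the sources used here, so reads from the overlap may not be told apart.

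XAF1, a pro-apoptotic antagonist of the inhibitor XIAP, had the largest fold change of the 38 and few reads, at 10, 13 and 7 counts in DOX-negative and 29, 24 and 28 counts in DOX-positive libraries. No DOX-positive library was below a DOX-negative one. The rise was 2.29-fold with a wide 95% interval of 1.44 to 3.65 (log2 fold change 1.2, SE 0.31, adjusted p = 0.048). XAF1 remained under 0.1 TPM in both groups. IFI44, of unsettled function, was likewise sparse, at 17, 13 and 8 counts in DOX-negative and 33, 22 and 38 in DOX-positive libraries. Its groups were apart, and the log2 fold change of 1.05 (SE 0.30) did not pass the test (adjusted p = 0.064).

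**Figure D3:**
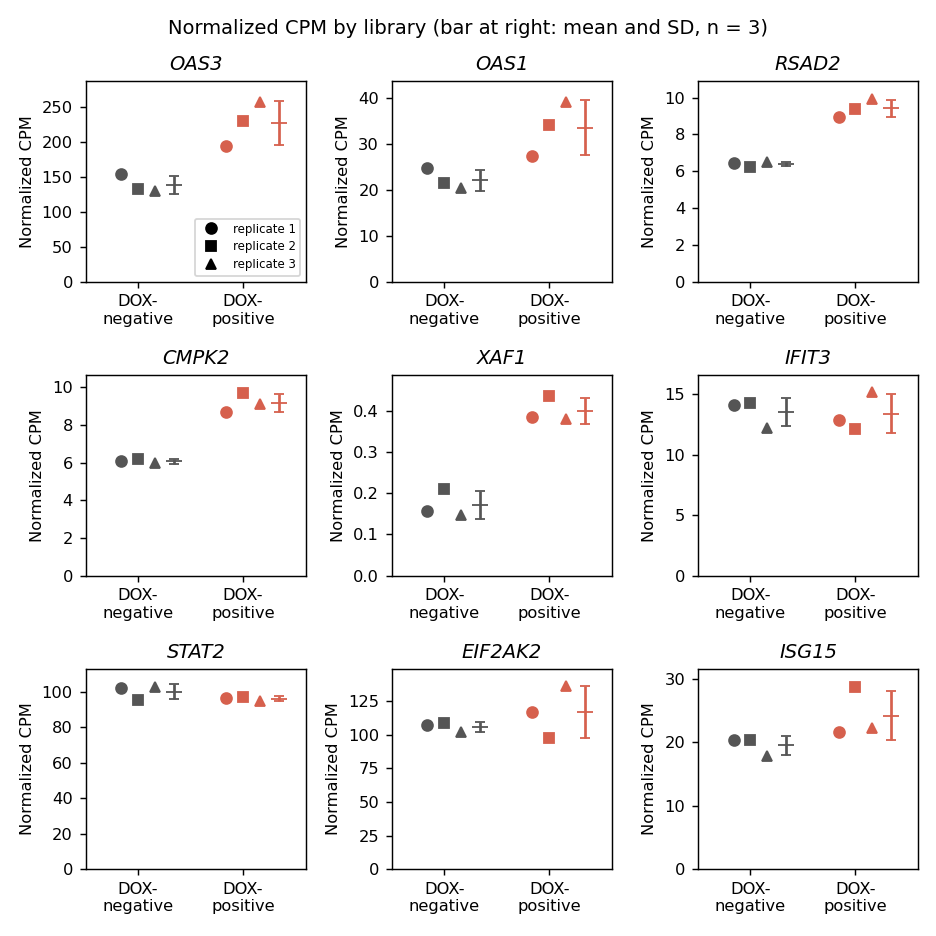
Normalized CPM in each library for 9 genes (y axes start at 0 and differ between genes; symbols mark replicates, the bar at the right of each group is mean and SD, n = 3). DOX-positive points lie above DOX-negative points for OAS3, OAS1, RSAD2, CMPK2, XAF1 and ISG15, and the groups overlap for IFIT3, STAT2 and EIF2AK2.

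Of the effectors ISG15, IFI6, MX1 and MX2, edgeR called 0, where 2.91% of all tested genes were called higher and 1.96% lower. DESeq2 called MX2. ISG15 was at 20.4, 20.4 and 17.8 CPM in DOX-negative and 21.6, 28.7 and 22.3 CPM in DOX-positive libraries. The ISG15 groups were apart, with DOX-positive replicate 2 highest, and the log2 fold change was 0.30 (SE 0.12, adjusted p = 0.15). IFI6 was at 22.0, 24.0 and 21.6 CPM in DOX-negative and 20.5, 21.9 and 18.2 CPM in DOX-positive libraries, a log2 fold change of -0.15 (adjusted p = 0.38). MX2, a dynamin-like GTPase that blocks nuclear entry of viruses, was at 5.34, 3.96 and 4.01 CPM in DOX-negative and 5.75, 6.33 and 6.77 CPM in DOX-positive libraries, with groups apart and a difference of 0.50 on the log2 scale (SE 0.14, edgeR adjusted p = 0.059). MX2 passed in DESeq2 (adjusted p = 0.024) and in edgeR without the count filter. Its paralog MX1 also had groups apart, with a log2 fold change of 0.15 (95% interval -0.13 to 0.42). The difference between MX2 and MX1 was not tested.

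The IFIT genes, a cluster on chromosome 10 whose proteins bind foreign 5' ends of RNA, included 0 called members. Of all tested genes, 2.91% were called higher and 1.96% lower. IFIT3 was at 14.1, 14.3 and 12.2 CPM in DOX-negative and 12.9, 12.1 and 15.2 CPM in DOX-positive libraries, which overlapped, with a log2 fold change of -0.02 (95% interval -0.26 to 0.22). IFIT2 was also at -0.02 (95% interval -0.29 to 0.26). IFIT5 was at 0.21 (adjusted p = 0.35). IFIT1, with a mean of 38.5 counts, was at -0.15 with a wide interval of -0.70 to 0.39.

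The SAMD9 pair restricts poxviruses, and of the HERC ligases HERC5 attaches ISG15 to proteins. Levels of SAMD9, SAMD9L and HERC5 overlapped between the groups. SAMD9L was at 4.49, 3.73 and 3.78 CPM in DOX-negative and 5.34, 4.47 and 7.5 CPM in DOX-positive libraries, with a log2 fold change of 0.53 (adjusted p = 0.10). SAMD9 had one of -0.03 (adjusted p = 0.94), with both its lowest level (13.2 CPM) and its highest (23.2 CPM) in DOX-positive libraries. HERC5 was at 23.0, 22.7 and 21.9 CPM in DOX-negative and 27.7, 22.8 and 34.4 CPM in DOX-positive libraries, which overlapped narrowly, with a log2 fold change of 0.33 (adjusted p = 0.16). HERC6 had 0.26 (adjusted p = 0.17), with groups apart. IFI35, which modulates RIG-I signaling, was at 11.3, 11.1 and 11 CPM in DOX-negative and 11.2, 16.2 and 14.0 CPM in DOX-positive libraries, a log2 fold change of 0.30 (adjusted p = 0.18).

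The remaining effectors did not pass the test. IFI27, a mitochondrial protein with a mean of 35.3 counts, had a difference of 0.62 on the log2 scale (SE 0.26, adjusted p = 0.18) and groups apart. BST2 (tetherin), which holds budding virions on the cell, had 0.42 (adjusted p = 0.44) on a mean of 32.8 counts. The antibody receptor TRIM21 had 0.21 (adjusted p = 0.24) and the exonuclease ISG20 had 0.17 (adjusted p = 0.33), both with groups apart. Of the 33 tested genes that were not called, 20 had a 95% interval of the log2 fold change within 0.5 in either direction. An interval wholly above 0 was found for 14, and as many had an unadjusted p under 0.05 (edgeR). Of all tested genes, called or not, 11.6% were higher at that threshold. The shares of all uncalled genes with such intervals were not counted. A p that missed the threshold does not show that these genes were equal in both groups.

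The genes of the pathway outside the 39 were read from a list of 63, of which 36 could be tested. No gene of this list was called by edgeR, where 2.91% of all tested genes were called higher and 1.96% lower. At an unadjusted p under 0.05 (edgeR) there were 11 of the 36, where 21.1% of all tested genes were. Of these, 9 were higher, where 11.6% of all were. DESeq2 called CGAS and TRAF3, where it called 6% of all genes. The median log2 fold change was 0.08, 24 were above 0 and 12 below, and groups were apart upward for 10 (14.8% of all tested genes) and downward for 2 (13.3% of all tested genes). Of 21 interferon ligand genes, 18 had 0 counts in all 6 libraries. IFNB1, encoding interferon beta, had 5, 1 and 2 counts in DOX-negative and 13, 3 and 0 counts in DOX-positive libraries, which was too few to test. With 0 counts, a ligand transcript could still be present below the depth of these libraries.

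The receptor chains and their kinases were expressed. Of them edgeR called 0, where 2.91% of all tested genes were called higher and 1.96% lower. IFNAR1 was at 42.8, 42.4 and 44.2 CPM in DOX-negative and 40.4, 35.6 and 46.3 CPM in DOX-positive libraries, a log2 fold change of -0.08 (adjusted p = 0.69). IFNAR2 had 0.08 (adjusted p = 0.65), JAK1 had 0.08 (adjusted p = 0.60) and TYK2 had 0.16 (adjusted p = 0.31). JAK2, the kinase of the interferon-gamma receptor, had 0.26 (95% interval -0.012 to 0.53, adjusted p = 0.26). The sign of IFNAR1 flipped when DOX-positive replicate 2 was left out, to 0.01.

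Downstream of the sensors, the adaptor MAVS had a log2 fold change of 0.10 (adjusted p = 0.50) and IRF3, the factor that it activates, had 0.02 (95% interval -0.16 to 0.20). ADAR, which edits double-stranded RNA and keeps it from the sensors, was at 573, 545 and 504 CPM in DOX-negative and 552, 564 and 573 CPM in DOX-positive libraries, a log2 fold change of 0.06 (adjusted p = 0.71).

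The libraries were then compared over the 38 genes together. The median deviation of a gene from its own mean over the 6 libraries was -0.08, -0.10 and -0.13 (log2, in the order of the replicate numbers) without DOX, and 0.06, 0.08 and 0.29 with DOX. Over all tested genes the same median lay between -0.00044 and 0.017 in every library. DOX-positive replicate 3 held the highest level of 23 of the 38 genes and DOX-positive replicate 2 that of 10. DOX-negative replicate 3 held the lowest level of 14.

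**Figure D4:**
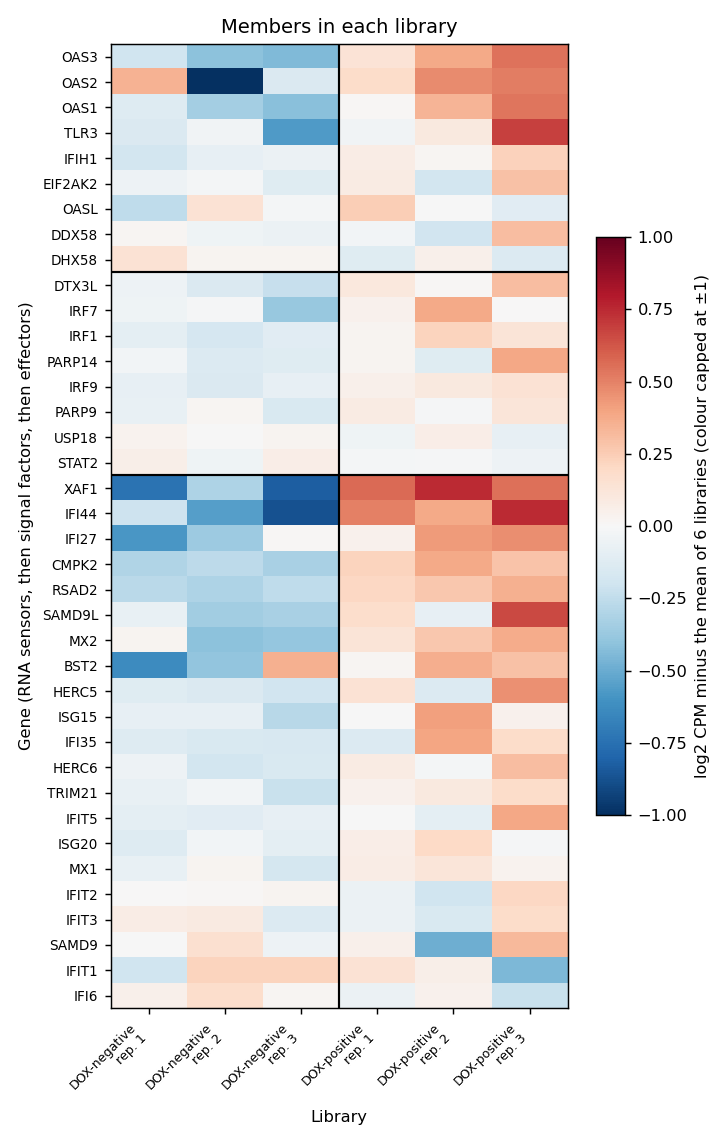
Level of each of the 38 tested genes in each library, as log2 CPM minus the mean of the 6 libraries (colour, capped at 1 in either direction), with rows by role and the groups divided by the vertical line. DOX-positive replicate 3, at the right, holds the highest level of 23 of the 38 genes.

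The level in DOX-positive replicate 3 relative to DOX-positive replicate 2 moved with base composition and, among the members, also with transcript length. Across the 38 genes, the log2 ratio of these libraries had a Pearson correlation of -0.78 with the mean GC content of a gene's transcripts. It was -0.53 across 15956 tested genes, which all share the same pair of libraries. With log2 transcript length the correlation was 0.61 across the 38 genes and 0.13 across the 15956. The parts of GC content and length among the members were not tested. Of the 19 members with a GC content under 50%, 18 were higher in replicate 3, with a median log2 ratio of 0.35. Of the 19 members at 50% or more, 5 were higher in replicate 3, with a median of -0.10. An edgeR fit that removed each library's trend in GC content and transcript length was chosen after the data were seen. It called 12 of the 38 genes higher. Of all genes in that fit, 12.6% were called in either direction, and 51.3% of those calls were higher. The 12 were OAS3, OAS1, RSAD2, CMPK2, XAF1, MX2, IFI44, ISG15, IRF1, DTX3L, HERC5 and SAMD9L.

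**Figure D5:**
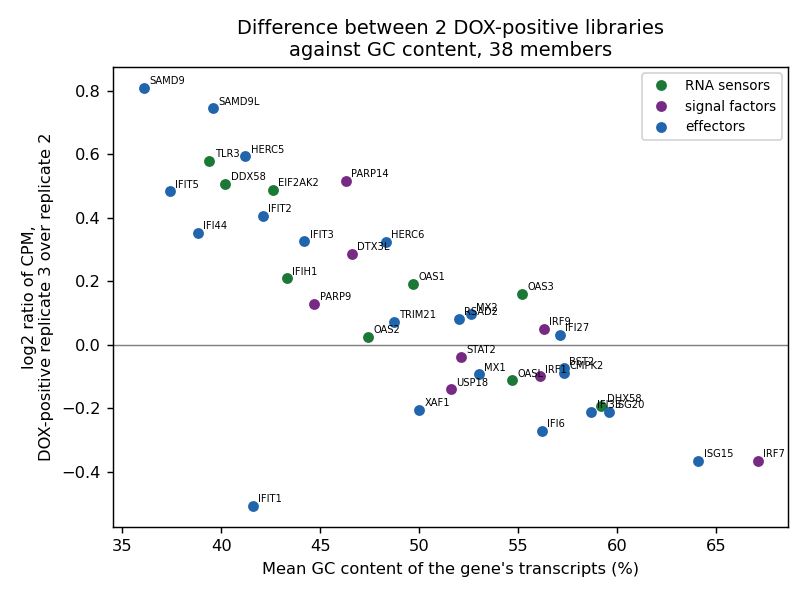
Log2 ratio of CPM in DOX-positive replicate 3 over DOX-positive replicate 2 (y axis) against the mean GC content of the gene's transcripts in percent (x axis) for the 38 genes, coloured by role. Genes of low GC content such as SAMD9 and SAMD9L lie above 0 and genes of high GC content such as IRF7 and ISG15 below, with IFIT1 apart from the rest.

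Each library was left out in turn, and over all genes 127 and 58 were then called without DOX-negative replicate 2 and 3. OAS3 was called in 5 of 6 fits that left out 1 library, and lost its call without DOX-negative replicate 3 (adjusted p = 0.063), at log2 fold changes of 0.61 to 0.81 across the 6 fits. RSAD2 and CMPK2 were each called in 4 of 6, and lost their calls without DOX-negative replicate 2 or 3, where the log2 fold changes were 0.54 and 0.56 for RSAD2 and 0.61 and 0.57 for CMPK2. OAS1 was called in 2 of 6, and lost its call without DOX-negative replicate 2 or 3 or DOX-positive replicate 2 or 3, at log2 fold changes of 0.47 to 0.73 across the 6 fits. XAF1 was called in 0 of 6, at 1.11 to 1.38. All 5 kept the upward direction in each of these fits. On log2 TPM, tested with limma, 0 members were called at any pseudocount or filter tried, where at most 35 of all genes were called.

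Markers of other cell types were read for the same libraries. PTPRC had 1 read in a single DOX-negative library, CD3E, CD3D and MS4A1 were at 0 counts, and the 9 leukocyte markers summed to 2.58 to 2.94 CPM in DOX-negative and 3.45 to 3.91 CPM in DOX-positive libraries, 1 of 2 tested (CD68) being called higher. The 4 endothelial markers summed to 4.19 to 5.43 CPM and 7.17 to 8.69 CPM, with VWF and CDH5 called higher, KDR at a log2 fold change of -0.73 (edgeR adjusted p = 0.44) and PECAM1, at no more than 0.105 CPM in any library, not tested. The 5 fibroblast markers summed to 25.1 to 30.6 CPM and 23.4 to 27.9 CPM, with COL1A1 and LUM called higher. COL1A2, the most abundant of them in DOX-negative cells, was at 14.6, 21.5 and 18.3 CPM without DOX and 13.9, 12.6 and 6.81 CPM with DOX (log2 fold change -0.71, edgeR adjusted p = 0.20). The 5 luminal prostate markers summed to 2.79 to 3.36 CPM and 2.36 to 3.05 CPM. The part of these markers in the rise of the 5 genes was not tested.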

How the data were processed

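RNA-seq was performed on H660/tet-MUC1shRNA cells cultured in triplicate per group, and the titles gave each sample its group and number. Whether the replicates were separate cultures carried through independently is not stated in more detail, so p-values measure the spread between these libraries. Per the labels, total RNA was made into stranded mRNA libraries, and the submitters' processing notes name STAR, DESeq2 and builds GRCh38 and hg38. The aligner version, strand setting and annotation are not given in the sources used here. Raw counts for 28008 gene symbols were deposited by the authors, together with TPM, which divide counts by gene length and scale to a common total (25673 symbols). Counts showed 0 entries that named no gene.

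Counts were tested with edgeR 4.0.16 in R 4.3.3: filterByExpr (minimum count 10) left 17026 genes, library sizes were scaled by TMM factors (0.967 to 1.03), and a quasi-likelihood model (glmQLFit, glmQLFTest) without covariates contrasted both groups. P values were adjusted over all 17026 genes (Benjamini-Hochberg), and calls, written as rose or fell, required an adjusted p under 0.05. Intervals are 95% intervals of the log2 fold change. The biological coefficient of variation was 9.58%. Chi-square per degree of freedom was 15.6 to 34.3 for pairs of DOX-negative libraries and 58.1 to 95.1 for pairs of DOX-positive libraries. No pair agreed within sampling noise, and the DOX-positive libraries differed more among themselves. Symbols in the files were matched exactly, with DDX58 standing for RIGI in RefSeq. Promoters and gene positions were taken from RefSeq (GRCh38.p14), GC content and length from GENCODE transcripts, for 93.7% of tested genes and all 38 members, and levels between genes were compared as TPM.

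The members and lists were chosen with earlier results of these data known. Members named with their values were those called, the most abundant or most changed of each role, and fixed pathway genes, of which 2 are not reported here; the others were named after their values were seen. The alternatives tried were scaling by RLE, by upper quartiles or not at all, no count filter and a stricter one (50), DESeq2 1.42.0, limma-voom, limma 3.58.1 on log2 TPM with pseudocounts of 1 and 0.1, a replicate block and leaving out each library, and, added after seeing the data, offsets for GC content and length. The edgeR code was tested on simulated counts with known changes, placed only in genes with many reads and without trends in GC content. Those changes were larger than the ones of OAS3, OAS1, RSAD2 and CMPK2. The simulation therefore does not cover changes of that size or genes with few reads such as XAF1.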

Additional observations from a re-analysis of the deposited data

How the results depend on the processing

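Of the 18 alternatives, 12 used all 6 libraries and 6 left out 1. Across them, 32 of the 38 tested genes kept their direction in every alternative that could give a value, including the 5 called. The median log2 fold change of the members was 0.24 and kept within the spread between libraries except for log2(TPM + 1) with no filter, at 0.13 (effectors alone 0.19 with a filter and 0.12 without, from 0.30), and fits without 1 library gave 0.18 to 0.28. Members called, 5 in the edgeR test, numbered 0 for log2(TPM + 1) and for log2(TPM + 0.1) where genes needed a mean TPM of 1, 0 for log2(TPM + 1) with no filter, 12 with GC and length trends removed, 7 with DESeq2, and 0 to 6 without 1 library (1 and 0 when DOX-negative replicates 2 and 3 were dropped and 3 when DOX-positive replicate 3 was). Over all genes, 829 were called, and 1354 with DESeq2, 30, 35 and 0 (1248 at an unadjusted p under 0.05) in the same order of TPM fits, 2015 with GC and length trends removed and 58 to 1035 without 1 library. Pathway genes called, 0 in the edgeR test, were 2 with DESeq2 (CGAS and TRAF3) and 4 with GC and length trends removed (CGAS, STAT3 and TRAF3 among them). Without 1 library they were 0 to 3 (CGAS, IRF5 and TRAF3 without DOX-positive replicate 1). Of all genes, 4.87% were called in the edgeR test and 6% with DESeq2. The share was 12.6% with GC and length trends removed and 6.02% without DOX-positive replicate 1. MUC1 missed the threshold for log2(TPM + 1) with no filter, at -1.22 (limma adjusted p = 0.29). For these values the cause was not tested, beyond the smaller number of libraries when 1 is left out. The sign of IRF3 turned to -0.0281 with GC and length trends removed, and fits that left out 1 library gave -0.0287 to 0.0638 for IRF3 and -0.182 to 0.01 for IFNAR1, whose sign turned when DOX-positive replicate 2 was dropped (for IRF3 also without DOX-negative replicate 3, at -0.0151).

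Same-numbered libraries did not deviate together (correlations of deviations from the group means -0.32, 0.0083 and -0.12 over 17026 genes), so the numbers were not taken as pairs. With the replicate block, 998 genes and 5 members were called (OAS3, OAS1, RSAD2, CMPK2 and MX2, with XAF1 lost), and the median of the members was 0.23. XAF1 was called in 5 of the 14 alternatives that gave it an adjusted p. Depth limits XAF1, IFI44, OAS2 and the other members with a mean under 50 counts, 8 in number.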
